A study of Mus musculus with 4 samples.

Results

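The inflammatory CC chemokine genes Ccl2, Ccl3, Ccl4, Ccl5, Ccl6, Ccl7, Ccl8, Ccl9 and Ccl12 were followed through the immune cells of mouse tumours. The set was chosen by symbol, and each of the 9 symbols matched 1 of the 27998 genes in the deposited tables. The cells were live CD45+ cells sorted from tumours that had been transplanted into wild-type mice of the inbred strain 129S6 and digested with collagenase. Antibody was injected at 200 µg on days 3, 6 and 9 in every group, so the control mice were injected as well. The antibody was rat IgG2a (control), anti-PD-1 (RMP1-14), anti-CTLA-4 (9D9) or anti-PD-1 with anti-CTLA-4 (combination), both targets being receptors that restrain T cells. Each group was 1 droplet library of 3′ transcript ends, and neither the age of the mice nor how many went into a library is given in the sources used here.

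CC chemokines are small secreted proteins that draw leukocytes along a concentration gradient by binding G protein-coupled receptors on the cell surface. The monocyte chemoattractant genes Ccl2, Ccl7 and Ccl12 encode ligands of CCR2, the receptor by which monocytes leave the bone marrow and enter inflamed tissue and tumours, whereas mouse Ccl8 is known as a ligand of CCR8. Ccl3, Ccl4 and Ccl5 are made by activated myeloid cells, T cells and NK cells, and Ccl3 and Ccl5 encode ligands of CCR1. Ccl6 and Ccl9 encode CCR1 ligands of rodents that are typical of myeloid cells.

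The 14491 listed cells held 47589092 unique molecular identifiers (UMIs, each 1 captured transcript), 11176246 to 13374294 per library, with a median of 2549 to 2991 per cell. Levels are UMIs of a gene per 1000000 UMIs of the same cells (CPM), with exact Poisson 95% intervals, and shares of cells with a UMI were also taken after thinning each cell to 1000 UMIs. Intervals cover counting error only, and with 1 library per group no test between groups was possible. Pairs of libraries shared 12 to 25 cell barcodes. The authors' 19 clusters carry numbers only. By marker genes, clusters 1, 2, 4, 7 and 15 were macrophage/monocyte-like (6056 cells), 3, 6, 8, 9 and 10 T cell-like (3829 cells), 5 NK cell-like and 12 neutrophil-like, while 18 was tumour or fibroblast-like and 17 like migratory dendritic cells. Clusters 11 and 16 were like conventional and plasmacytoid dendritic cells, and clusters 0, 13 and 14 stayed unnamed. These names are rebuilt and may differ from the authors' own, and the clusters were built from the expression of all genes, with Ccl8, Ccl7 and Ccl12 among the 10 leading genes of cluster 2. Levels by cluster are therefore a description.

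The 9 genes lie on mouse chromosome 11 in a pair of blocks (GRCm38, GENCODE M21). Ccl2 (82035571 to 82037453), Ccl7 (82045712 to 82047525), Ccl12 (82101845 to 82103400) and Ccl8 (82115185 to 82116799) span 81.2 kb on the plus strand. After a gap of 1409 kb, Ccl5 (83525778 to 83530518), Ccl9 (83572919 to 83578636), Ccl6 (83587882 to 83593087) and Ccl3 (83647844 to 83649355), all on the minus strand, and Ccl4 (83662584 to 83664683, plus strand) span 138.9 kb. The longest run of bases shared by transcripts of a pair of members was 25, between Ccl6 and Ccl9. Ccl2 overlaps Gm17268 and Ccl6 overlaps E230016K23Rik, each on the other strand, and the sources used here do not say whether the counting used strand.

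RefSeq start regions were found for 5 of the 9 genes (Ccl12, Ccl8, Ccl9, Ccl6 and Ccl3, build GRCm38.p6). The 250 bases before the start are printed for the neighbours Ccl12 and Ccl8 and the neighbours Ccl9 and Ccl6. Within some clusters, the members of each pair differed from each other across the libraries. The Ccl3 window is not printed. Bases are read 5′ to 3′ on the gene's own strand, with TATAAA on either strand in capitals.
Ccl12 (chr11:82101595-82101844, plus): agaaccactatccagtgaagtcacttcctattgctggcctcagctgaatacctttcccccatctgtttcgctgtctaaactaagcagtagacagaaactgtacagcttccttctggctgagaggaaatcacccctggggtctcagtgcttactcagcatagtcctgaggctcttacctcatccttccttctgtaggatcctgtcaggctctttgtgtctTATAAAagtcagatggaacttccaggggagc
Ccl8 (chr11:82114935-82115184, plus): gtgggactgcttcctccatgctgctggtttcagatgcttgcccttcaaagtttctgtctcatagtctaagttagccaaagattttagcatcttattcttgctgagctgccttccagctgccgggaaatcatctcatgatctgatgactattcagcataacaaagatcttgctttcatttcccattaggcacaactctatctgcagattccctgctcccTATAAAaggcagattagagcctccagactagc
Ccl9 (chr11:83578637-83578886, minus): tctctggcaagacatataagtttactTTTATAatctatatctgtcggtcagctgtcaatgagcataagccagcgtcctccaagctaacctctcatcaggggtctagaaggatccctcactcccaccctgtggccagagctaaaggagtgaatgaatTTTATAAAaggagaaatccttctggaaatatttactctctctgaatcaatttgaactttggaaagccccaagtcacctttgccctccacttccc
Ccl6 (chr11:83593088-83593337, minus): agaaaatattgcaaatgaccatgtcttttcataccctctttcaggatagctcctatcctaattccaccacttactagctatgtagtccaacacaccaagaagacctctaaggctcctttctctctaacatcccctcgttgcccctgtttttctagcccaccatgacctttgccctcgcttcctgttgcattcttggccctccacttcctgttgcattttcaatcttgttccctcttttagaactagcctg
Ccl12 held TATAAA 31 bases and Ccl8 32 bases before the start, and the windows of these neighbours matched at 150 of 250 aligned bases. Ccl9 held TATAAA 92 bases before the start and also on the opposite strand, at 94 and 224 bases, with the 92-base and 94-base matches overlapping. The Ccl6 and Ccl3 windows held none. TATAAA was present on either strand in 12.4% of 32851 windows of this length. The NF-kB motif (GGGA, any 2 bases, TTCC, in 1.21% of all windows), the interferon-stimulated response element (TTTC, any 2 bases, TTTC, 2.98%), TTCNNNGAA (STAT, 7.02%) and TTGCNNAA (C/EBP, 9.56%), searched on both strands, were found in none of the 5 windows. Ccl9 also held TGANTCA (AP-1, 6.75%) 53 bases and a looser NF-kB motif (GGG, any 5 bases, CC, 45.8%) 35 bases before the start, and GAGGAA (ETS, 23.2%) was found in the Ccl12, Ccl8 and Ccl3 windows.

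Across clusters, the monocyte chemoattractant genes were mainly macrophage transcripts. Macrophage/monocyte-like cells carried 95.1% of all Ccl8 UMIs, 92.6% of Ccl7, 91.7% of Ccl12 and 82.4% of Ccl2. Ccl8 reached 27404 CPM in cluster 2 (27271 to 27538) and 11047 CPM in cluster 1 (10977 to 11118), against 4406.6 in cluster 7, 3677.5 in cluster 15 and 640.5 in cluster 4. Over all libraries summed, the same order of clusters 2 and 1 held for Ccl7, at 1269.5 CPM (1240.9 to 1298.5) and 919 (898.8 to 939.5), and for Ccl12, at 998 (973 to 1024) and 721 (703 to 739). In the combination library the order was turned, with cluster 2 below cluster 1 for Ccl8 (12796 and 14225 CPM), Ccl7 (874 and 1401) and Ccl12 (510.3 and 747). Cluster 7, led by the interferon-induced genes Rsad2, Ifit2 and Ifit3, held Ccl2 at 603 CPM (574.5 to 632.9), which overlaps the interval in cluster 2 (610.1 to 650.7), but held Ccl7 and Ccl12 at 329 and 332 CPM. Cluster 4, led by Chil3, held Ccl2, Ccl7 and Ccl12 at 76.0, 33.2 and 21.5 CPM.

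Ccl2 was also high in the few cells of a cluster without immune leading genes. The sort was for CD45+ cells, so these cells do not measure that cell type in the tumour. The highest Ccl2 level was 1489.9 CPM (1318 to 1678) in cluster 18, 55 cells led by the collagen genes Col3a1 and Col1a1, where 49.1% of cells had a UMI. The 10 cells richest in Ccl2 held 86.8% of its UMIs there, and the cluster gave 2.09% of all Ccl2 UMIs. Ccl7 stood at 426 CPM in cluster 18 and Ccl12 at 16.4 CPM, from 3 UMIs.

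In droplet data, free RNA gives UMIs in cells that do not express a gene. T cell-like cells, used as the reference for the monocyte chemoattractant genes, held Ccl8 at 217 CPM in control, 698 after anti-PD-1, 129 after anti-CTLA-4 and 222 after both antibodies, with a UMI in 13.5%, 44.9%, 28.4% and 13.3% of cells (median 1698 to 2345 UMIs per cell). Ccl2, Ccl7 and Ccl12 stood at 21.4, 22.4 and 18.4 CPM over the T cell-like cells of all libraries. Ccl8 in clusters 0 and 4 was near the T cell-like level in some libraries, at 798 and 722 CPM with anti-PD-1, and is not read as expression there. Ccl7 and Ccl12 in cluster 4 are not read either. The T cell-like level of Ccl8 did not follow that of cluster 2 in every library: with anti-CTLA-4 it was the lowest of the 4 by CPM while its share of cells was the second highest, and the 10 richest cells held 53.9% of T cell-like Ccl8 UMIs over all libraries.

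Ccl6 and Ccl9 were myeloid, with a wider spread over clusters. Macrophage/monocyte-like cells carried 76.3% of Ccl6 and 74.8% of Ccl9, and unnamed cluster 0 carried 12.6% and 16.95%. Leading genes of cluster 0 included Ms4a4c, Plac8 and Il1r2, of which only Il1r2 was on a marker list, that of neutrophils. Over all libraries summed, Ccl6 stood highest in neutrophil-like cluster 12 (2333 CPM, 2203 to 2469), then in cluster 2 (1682, 1649 to 1715). With anti-PD-1, however, cluster 2 was above cluster 12 (1697 and 1341 CPM), and with the combination cluster 1 (1843) was level with cluster 2 (1825.5). Ccl9 summed over libraries was highest in cluster 2 (712, 691 to 734) and lower in cluster 12 (327, 280 to 381). In the combination library cluster 1 was above cluster 2 for Ccl9 (838 and 609.9 CPM), and with anti-PD-1 cluster 12 (836, from 68 UMIs) was near cluster 2 (787). T cell-like cells held 40.0 CPM of Ccl6 and 24.1 of Ccl9.

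Ccl3 and Ccl4 reached their highest levels in neutrophil-like cells, while T cell-like cells gave more of the Ccl4 UMIs. The 248 neutrophil-like cells of cluster 12, a minor share of the cells, gave 39.0% of all Ccl3 UMIs and 21.1% of Ccl4, at 6985 CPM (6759 to 7218) and 10780.1 CPM (10498 to 11068). A UMI of Ccl3 was seen in 85.9% and of Ccl4 in 81.05% of these cells, at a median of 1386.5 UMIs per cell, and in 79.7% and 75.6% after thinning. T cell-like cells gave 43.9% of Ccl4 and 28.4% of Ccl3, with Ccl4 at 2303 CPM in Foxp3-led cluster 10, 1770.5 in Cd8b1-led cluster 8 and 1706 in Cd4-led cluster 3. Among macrophage/monocyte-like clusters, cluster 7 was highest for both, at 326 CPM of Ccl3 and 909 of Ccl4. T cell-like cluster 6, taken as the low reference for this pair, held 45.2 and 209.9 CPM. In the collagen-led cluster 18, Ccl3 had no UMI in 55 cells. With 3 cells of the total taken as an approximate bound, not an exact interval, this allows a share with a UMI of about 5.455%. That count sets no limit on cells expressing the gene.

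Ccl5 was split over lineages. Its CPM was 7890.5 (7754 to 8028) in Cd8a-expressing cluster 8, 7686 (7443 to 7935) in migratory dendritic cell-like cluster 17, whose interval overlaps that of cluster 8, and 5877.5 (5772 to 5984) in NK cell-like cluster 5. Macrophage/monocyte-like cells carried 45.0% of Ccl5 UMIs, at 1951 CPM, and T cell-like cells carried 25.3%. Neutrophil-like cluster 12, taken as the reference class, stood at 587 CPM with a UMI in 23.0% of cells.

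**Figure D1:**
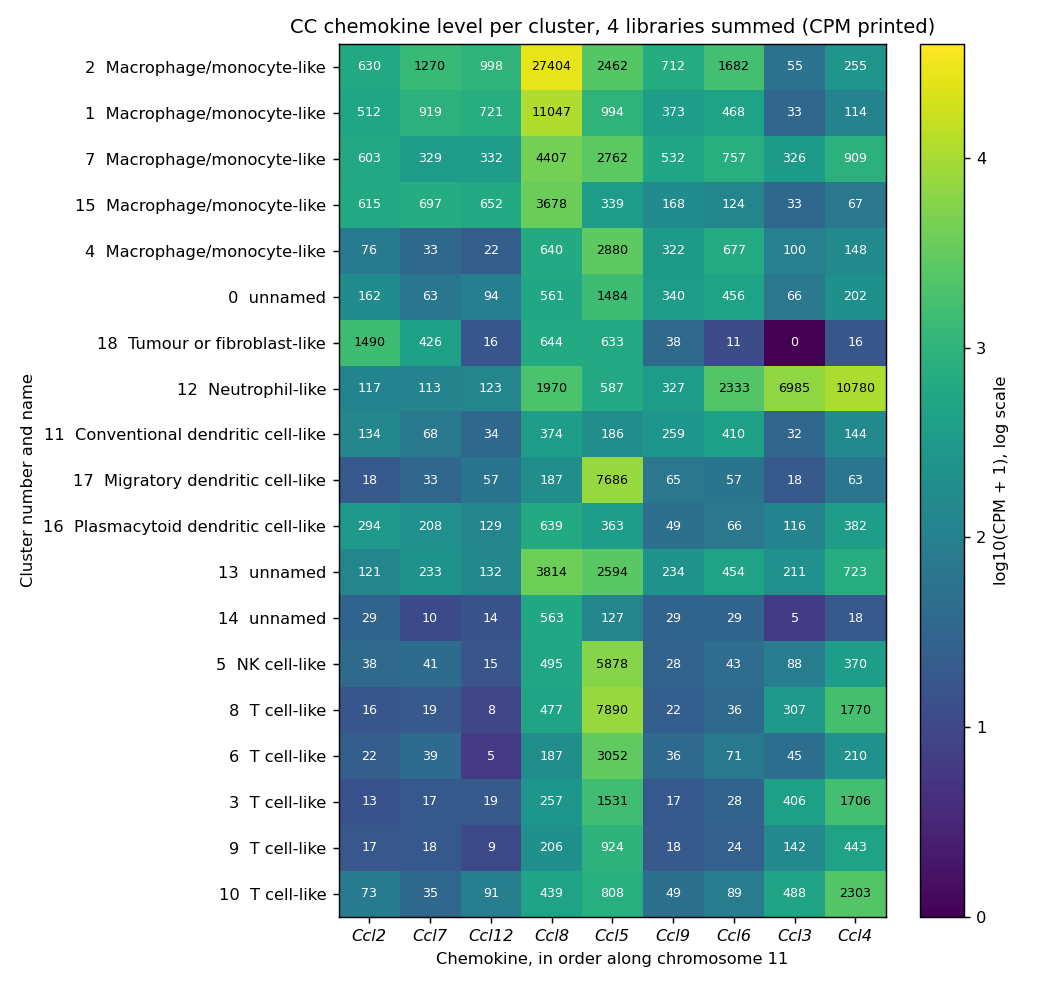
Level of each chemokine (columns, in chromosome order) in each of the 19 clusters (rows), all 4 libraries summed, with CPM printed in the cells and colour on a log10 scale. Ccl8 peaks at 27404 CPM in cluster 2, Ccl3 and Ccl4 at 6985 and 10780.1 in neutrophil-like cluster 12, and Ccl5 is high in clusters 8, 17 and 5.

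Some neighbours on the chromosome had alike profiles over the 66 pairs of cluster and library with at least 30 cells, as a description in which pairs share libraries. By Pearson's r of log2(CPM + 10) among 7158 genes, the genes most like Ccl7 were Ccl12 (0.90) and Ccl2 (0.86), and those most like Ccl3 were Ccl4 (0.93) and Srgn (0.76). Ccl8 was most like Folr2 (0.88), a folate receptor gene of tissue macrophages, and next Ccl7 (0.83). Ccl9 was most like Sirpa (0.92) and Clec4n (0.92), Ccl6 most like Wfdc17 (0.92) and F10 (0.89), and Ccl12 like Ms4a7 (0.86) after Ccl7. Ccl5 had no close match, with H2-Q7 at 0.64 and H2-K1 at 0.61. The neighbours Ccl6 and Ccl9 were also alike (r of 0.87), as were Ccl12 and Ccl8 (0.82). Not alike were the neighbours Ccl5 and Ccl9 (0.07) and Ccl6 and Ccl3 (0.30).

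Within clusters, with the cells of all libraries pooled, the linked genes were often seen in the same cells. In cluster 2, after thinning, Ccl7 was seen in 59.0% of the 427 cells with Ccl2 and in 17.9% of the cells without it. In cluster 1 the corresponding shares were 61.5% and 18.1%. In cluster 12, Ccl4 was seen in 85.4% of the 157 cells with Ccl3 and 37.5% of those without. For Ccl6 and Ccl9 in cluster 2 the contrast was smaller, with Ccl9 in 44.4% of Ccl6-positive and 21.6% of Ccl6-negative cells. Cells with and without the first gene differed in depth, with medians of 3323 and 2890 UMIs for Ccl2 in cluster 2 and 1502 and 3135 for Ccl3 in cluster 12. Levels of these genes also differed between the pooled libraries, and the part of this in the shares was not tested.

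The comparisons between libraries asked how the chemokines differed between checkpoint antibody and control. Over all macrophage/monocyte-like cells, 4 of the 9 genes were at least 2-fold higher with anti-PD-1 (Ccl4, Ccl5, Ccl6 and Ccl8) and none lower. With anti-CTLA-4, 5 were higher (the same 4 and Ccl3) and Ccl7 was lower. With the combination, 3 were higher (Ccl3, Ccl5 and Ccl6) and Ccl12 was lower. These counts use the clusters as found, whose makeup differed between libraries. Of all genes with at least 20 UMIs in 1 of the libraries compared, 2.98% were at least 2-fold higher and 7.32% lower after anti-PD-1, 3.64% and 8.31% after anti-CTLA-4 and 3.72% and 10.4% after the combination. All 9 members passed that UMI minimum. The median log2 ratio of the members was 0.87, 1.36 and 0.45, against -0.13, -0.17 and -0.21 over all genes tested. Scaling by median-of-ratios size factors in place of totals added 0.13, 0.16 and 0.21 to every log2 ratio of the class. The 3 comparisons share the control library and are not independent.

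Among the monocyte chemoattractant genes, Ccl8 differed most from control with each single antibody. Its level in the macrophage/monocyte-like class was 4889.7 CPM in control, 25358 after anti-PD-1, 15217 after anti-CTLA-4 and 6657 after both antibodies. The log2 ratio to control was 2.375 (2.36 to 2.39), 1.64 (1.62 to 1.66) and 0.45 (0.42 to 0.47). All 3 treated libraries were thus above control, the combination least.

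In cluster 2, though not in clusters 1 and 7, the combination was not above control for Ccl8. In cluster 1, Ccl8 stood at 4845.5 CPM in control, 22129.6 after anti-PD-1, 19296 after anti-CTLA-4 and 14225 after the combination, log2 ratios of 2.19, 1.99 and 1.55. In cluster 2 it stood at 12932, 45141, 28614 and 12796 CPM, log2 ratios of 1.80 (1.77 to 1.84), 1.15 (1.11 to 1.18) and -0.02 (-0.05 to 0.02). The combination library was therefore level with control in cluster 2, where both single-antibody libraries were above it. The control value rests on few of its 159 cells, since 10 cells held 49.7% of its UMIs, and without the 10 richest cells of each library the ratios were 2.53, 1.74 and 0.51. In cluster 7 the values were 811, 9749, 3746 and 3969 CPM, all treated libraries above control. In cluster 7 the 10 richest cells held 91.0% of control Ccl8 UMIs and 55.6% to 80.6% in the treated libraries, and leaving those out gave log2 ratios of 4.69, 4.42 and 4.22.

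Shares of cells moved with the level of Ccl8. After thinning, 54.4% of control cells of cluster 2 had a Ccl8 UMI, 85.85% after anti-PD-1, 79.4% after anti-CTLA-4 and 52.95% after the combination (unthinned 68.55%, 92.2%, 84.6% and 62.2%). In cluster 1 the thinned shares were 39.55%, 70.8%, 70.7% and 50.85%. Against these, the thinned share in T cell-like cells was 6.70%, 23.2%, 11.9% and 7.96%. The combination also lay below anti-PD-1 in each of clusters 1, 2 and 7, by log2 ratios of -0.64, -1.82 and -1.30, and below anti-CTLA-4 in clusters 1 and 2 (-0.44 and -1.16) but not in cluster 7 (0.08).

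The CCR2 ligand genes took another course. In the macrophage/monocyte-like class, Ccl2 stood at 628 CPM in control, 479.5 after anti-PD-1, 332 after anti-CTLA-4 and 385 after the combination, so that all treated libraries were lower. Ccl7 stood at 943, 1088, 454 and 488 CPM and Ccl12 at 725, 966, 444 and 290.0 CPM, both slightly above control with anti-PD-1 and below it in the other libraries. For anti-CTLA-4 the log2 ratios were -0.92 (-1.002 to -0.84) for Ccl2, -1.05 (-1.12 to -0.98) for Ccl7 and -0.71 (-0.78 to -0.63) for Ccl12, beside 1.64 for Ccl8 in the same cells.

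In cluster 2, Ccl2 stood at 1269 CPM in control, 655 after anti-PD-1, 381 after anti-CTLA-4 and 581 after the combination. Ccl7 stood at 1751, 1922, 666 and 874 CPM and Ccl12 at 1203.5, 1573, 760.5 and 510.3 CPM. With the combination, Ccl2, Ccl7 and Ccl12 were the 3 members at least 2-fold lower in cluster 2 and none was higher, at log2 ratios of -1.13, -1.002 and -1.24, where 7.11% of all genes were higher and 5.02% lower. Without the 10 richest cells of each library those ratios were -0.44, -0.61 and -0.90. With anti-CTLA-4, Ccl8 was higher and Ccl2 and Ccl7 lower there (background 6.39% and 5.32%). With anti-PD-1 only Ccl8 passed 2-fold (7.75% and 3.97%).

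Cluster 7 was lower for these genes too, mainly with the combination. Ccl2 stood at 935, 782, 764 and 293 CPM in the control, PD-1, CTLA-4 and combination libraries, Ccl7 at 549.7, 358, 398.5 and 189, and Ccl12 at 523, 485, 344 and 194.5. The combination ratios were -1.68 (-1.90 to -1.45), -1.54 and -1.43. The share of cells with a Ccl2 UMI after thinning was 31.1% in control and 11.4% with the combination. These values rest on few cells, since 10 cells held 69.45% of control Ccl2 UMIs in cluster 7 and 61.1% of those with the combination. Without them the ratio was -1.44. Summed T cell markers in cluster 7 were 239.8, 304, 339 and 459.7 CPM in the same order of libraries, with 8 to 10 of 11 markers seen, and their part in the result was not tested.

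Cluster 1 went the other way with the combination. Ccl2 stood at 539.7 CPM in control, 469.5 after anti-PD-1, 257 after anti-CTLA-4 and 920.4 after the combination, where the log2 ratio was 0.77 (0.65 to 0.89). Ccl7 stood at 934, 967, 592 and 1401 CPM, while Ccl12 was at 709, 1013, 515 and 747 CPM. The anti-CTLA-4 library was the lowest for all 3. Leaving out the 10 richest cells of each library lowered the combination ratio of Ccl2 to 0.27 and that of Ccl7 from 0.59 to 0.05.

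**Figure D2:**
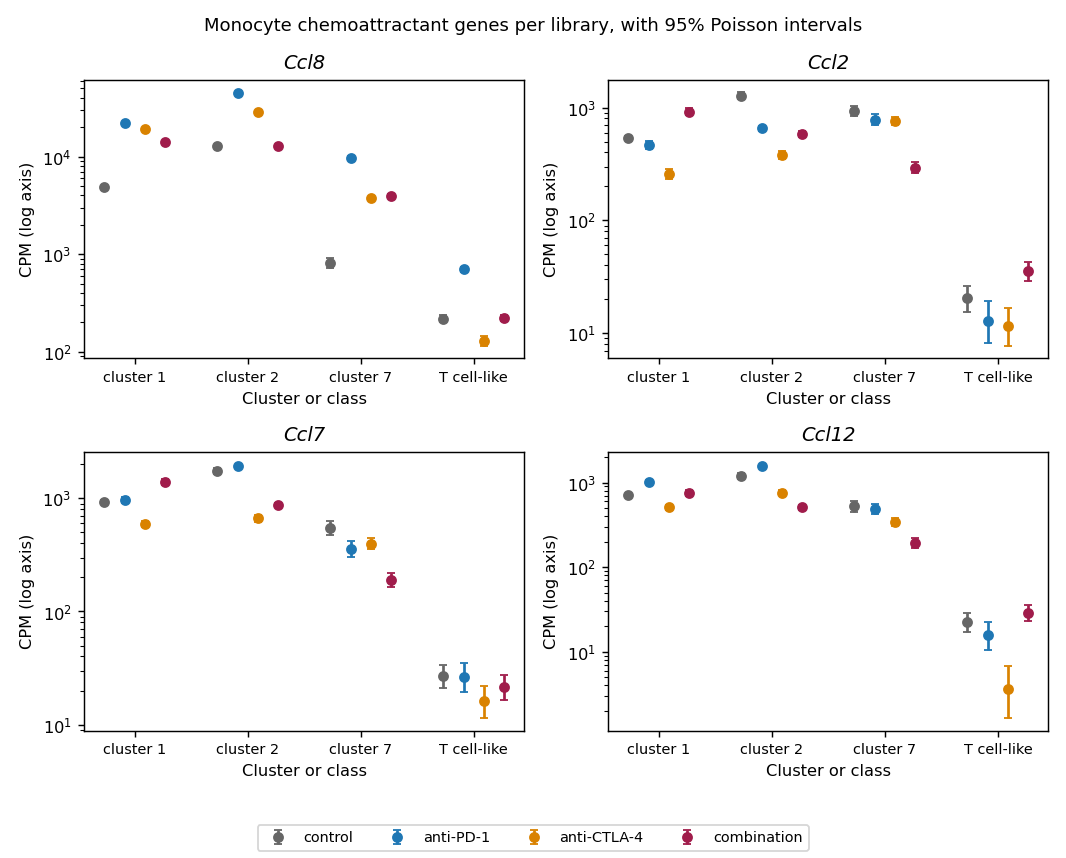
CPM (log axis) of Ccl8, Ccl2, Ccl7 and Ccl12 in macrophage/monocyte-like clusters 1, 2 and 7 and in T cell-like cells, 1 point per library with its exact Poisson 95% interval. In cluster 2, Ccl8 is above control with each single antibody and level with control with the combination (12796 against 12932 CPM), and Ccl2 is below control in all 3 treated libraries.

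Ccl6 was above control with every antibody in each of clusters 0, 1, 2, 4, 7 and 12. In the macrophage/monocyte-like class it stood at 286 CPM in control, 1041 after anti-PD-1, 896.5 after anti-CTLA-4 and 1245 after the combination, log2 ratios of 1.86 (1.79 to 1.94), 1.65 (1.57 to 1.72) and 2.12 (2.05 to 2.19). The widest difference was in cluster 1, at 204 CPM in control, 631 after anti-PD-1, 431 after anti-CTLA-4 and 1843 after the combination, where the log2 ratio was 3.17 (3.06 to 3.29). The thinned share of cluster 1 cells with a Ccl6 UMI was 12.6%, 27.4%, 24.1% and 46.6%. In cluster 2 the levels were 1138, 1697, 1698 and 1825.5 CPM, with the treated libraries close to each other and above control. Log2 ratios were 0.32 to 0.55 in cluster 0, 0.59 to 1.16 in cluster 4 and 0.78 to 1.21 in cluster 7, where thinned cells gave 0.25, 0.32 and 0.36. Neutrophil-like cluster 12 held 1193, 1341, 2198 and 3542 CPM, where the anti-PD-1 interval included no difference (-0.19 to 0.52). On thinned cells of cluster 12 the ratios were -0.24, -0.13 and 1.48.

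Ccl9, next to Ccl6 on the chromosome, had a profile like that of Ccl6 over the pairs of cluster and library (r of 0.87). Between libraries within clusters 2 and 7, however, Ccl9 did not follow Ccl6. In the macrophage/monocyte-like class it stood at 409 CPM in control, 572 after anti-PD-1, 384 after anti-CTLA-4 and 485 after the combination. In cluster 2 it was below control in each treated library, at 1071, 787, 589 and 609.9 CPM, and likewise in cluster 7, at 921.5, 699, 432 and 408 CPM. In cluster 1 it stood at 333.5, 402, 232 and 838 CPM, with the combination alone far above control (log2 ratio 1.33, 1.20 to 1.46).

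**Figure D3:**
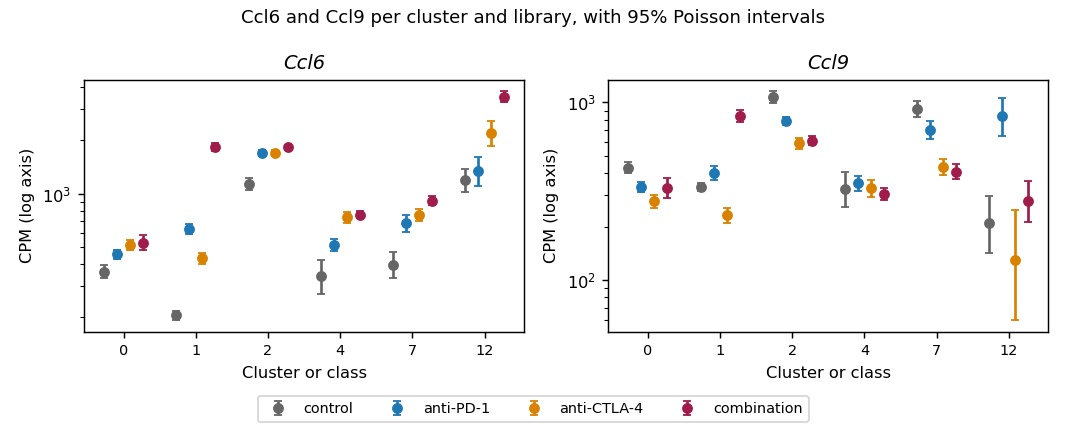
CPM (log axis) of Ccl6 and Ccl9 in clusters 0, 1, 2, 4, 7 and 12, 1 point per library with its exact Poisson 95% interval. Ccl6 is lowest in the control library in each of the 6 clusters, with 204 against 1843 CPM for the combination in cluster 1, whereas Ccl9 is highest in the control library in clusters 0, 2 and 7.

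In cluster 1 as a whole, 4 members were at least 2-fold higher with anti-PD-1 (Ccl4, Ccl5, Ccl6 and Ccl8) and none lower, where 2.89% of all genes were higher and 7.36% lower. With anti-CTLA-4, Ccl5, Ccl6 and Ccl8 were higher and Ccl2 lower (3.48% and 7.62%), and with the combination Ccl4, Ccl6, Ccl8 and Ccl9 were higher and none lower (3.92% and 11.6%). In cluster 7, Ccl8 alone was higher with anti-PD-1 (6.55% and 6.4%), Ccl3 and Ccl8 were higher and Ccl9 lower with anti-CTLA-4 (8.71% and 6.59%). After both antibodies Ccl3, Ccl6 and Ccl8 were higher and Ccl2, Ccl7, Ccl9 and Ccl12 lower (9.13% and 9.51%).

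Ccl5 stood at 925 CPM in the macrophage/monocyte-like class in control, 2923 after anti-PD-1, 2379.9 after anti-CTLA-4 and 1968 after both antibodies. The log2 ratios were 1.66, 1.36 and 1.09. Within clusters the combination lay closer to control. Ccl5 stood at 677, 1487, 1699 and 709 CPM in cluster 1 and at 1692, 2769, 3279 and 1806 CPM in cluster 2. Without the 10 richest cells of each library the combination ratio was -0.89 in cluster 1 and 0.78 in cluster 2. In cluster 4 Ccl5 was at 2287.5, 4265, 2726 and 2378 CPM. Only with anti-PD-1 was Ccl5 above control in all of clusters 0, 1, 2, 4 and 7.

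The makeup of the class differed strongly between libraries. Cluster 1 had 1075 of 1521 control cells but 254 of 1868 with the combination, cluster 2 went from 159 to 688 cells and cluster 4 from 55 to 589. Ratios were therefore recomputed with each library's clusters weighted as in the control library. Ccl5 with the combination then went from 1.09 to -0.05, and Ccl8 with the combination from 0.45 to 1.36. Ccl12 with the combination went from -1.32 to -0.28 and Ccl3 from 1.69 to 0.93. Ccl3 with anti-CTLA-4 went from 1.55 to 0.63. Each of these was then less than 2-fold. Ccl6 stayed higher in all 3 comparisons (1.29, 0.93 and 2.48). Ccl2 and Ccl7 with the combination changed direction, from -0.71 to 0.24 and from -0.95 to 0.21, where cluster 1, in which both were above control, weighs most. With anti-CTLA-4, Ccl2, Ccl7 and Ccl12 stayed lower (-1.08, -0.88 and -0.64). Cluster 15 had 9 to 14 cells in each treated library and 126 in control, and without it the fixed-makeup ratio of Ccl3 with anti-PD-1 went from 0.17 to -0.17.

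**Figure D4:**
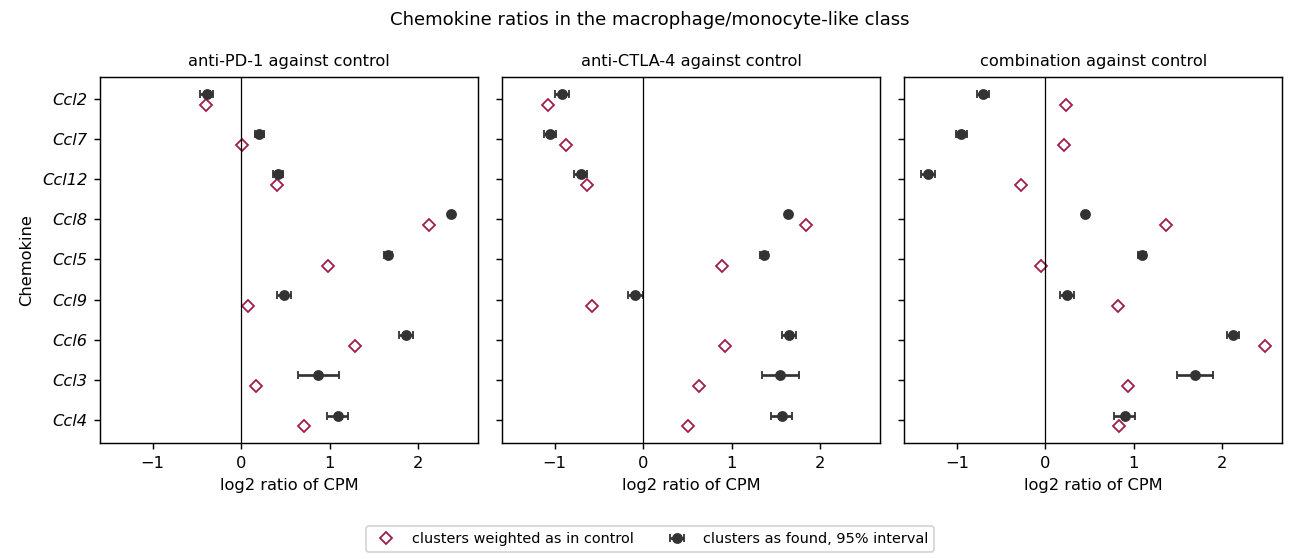
Log2 ratio of each chemokine in the macrophage/monocyte-like class for each treated library against control, with clusters as found (circles, 95% interval) and weighted as in the control library (diamonds). Ccl6 lies above 0 in all panels by either weighting, and Ccl5 with the combination moves from 1.09 to -0.05.

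In lymphoid clusters 5 and 8, Ccl5 was higher in the treated libraries, which did not hold for every T cell-like cluster. NK cell-like cluster 5 held 3698 CPM in control, 6953 after anti-PD-1, 4888 after anti-CTLA-4 and 9695 after the combination, log2 ratios of 0.91 (0.84 to 0.99), 0.40 (0.32 to 0.49) and 1.39 (1.31 to 1.47). Cluster 8 held 5309, 9261, 6587 and 11669 CPM, log2 ratios of 0.80, 0.31 and 1.14, where the anti-CTLA-4 ratio was -0.09 without the 10 richest cells of each library. The order of the 4 libraries was thus the same in both clusters. Cluster 6, T cell-like and led by Cd7, Bcl2 and Ltb, held 2979.5 to 3117 CPM in all 4 libraries. Cd4-led cluster 3 held 1617, 1708, 727 and 1875 CPM, with anti-CTLA-4 below control (log2 ratio -1.15, -1.31 to -0.99, and -0.43 on thinned cells). Foxp3-led cluster 10 held 906, 778, 293.5 and 918 CPM, with anti-CTLA-4 again lowest (-1.63, from 32 UMIs). Cluster 9 held 912, 1007, 741 and 1158 CPM. With the combination, Ccl3, Ccl4 and Ccl5 were at least 2-fold higher in cluster 5, where Ccl2, Ccl7 and Ccl9 were lower, of 8 members with 20 UMIs (3.6% of all genes higher, 11.1% lower). The Ccl2, Ccl7 and Ccl9 levels there rest on 3, 2 and 6 UMIs with the combination, below the T cell-like levels of that library (35.7, 21.3 and 28.3 CPM against 9.46, 6.30 and 18.9), and are not read as expression. The same 3 were higher in cluster 8 and none was lower, of 4 members (5.36% and 7.33%).

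Ccl3 and Ccl4 came from few cells in cluster 5. In cluster 8, Ccl4 was seen in more of the cells, but its ratios with each single antibody depended on the richest cells. Ccl4 stood at 242.6, 147, 289.8 and 1157 CPM in cluster 5, a log2 ratio of 2.25 (1.98 to 2.54) with the combination. Its control and single-antibody levels were near that of low-reference cluster 6 over all libraries, as were those of Ccl3 (53.4, 61.6 and 56.4 CPM). The denominators of these ratios are thus near the reference. In cluster 5, 10 cells held 94.55% of the Ccl4 UMIs with the combination and 94.0% in control, and the share of cells with a UMI was 15.95% (13.7% thinned) against 6.13% (4.24%). In cluster 8, Ccl4 stood at 1110.3, 1892, 1917 and 2562 CPM. The share of cells with a UMI was 38.3%, 40.2%, 41.8% and 38.5% unthinned and 23.3%, 32.2%, 32.95% and 30.8% thinned. Without the 10 richest cells of each library the log2 ratios of Ccl4 there were -0.32, -0.35 and 1.06, against 0.77, 0.79 and 1.21 with them.

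In neutrophil-like cluster 12 both genes were above control in every treated library. Ccl4 stood at 3937 CPM in control (53 cells), 8708.5 after anti-PD-1, 13795 after anti-CTLA-4 and 15330.4 after both, from 38, 41 and 116 cells, log2 ratios of 1.145 (0.99 to 1.31), 1.81 (1.66 to 1.96) and 1.96 (1.83 to 2.09). Ccl3 stood at 3762, 6162, 8387 and 9077 CPM, log2 ratios of 0.71, 1.16 and 1.27. Thinned shares of cells with Ccl4 were 61.5%, 73.1%, 63.0% and 88.0%, and with Ccl3 67.3%, 73.1%, 77.8% and 89.1%. The 10 richest cells held 69.5% of control Ccl4 UMIs and 36.3% of those after both antibodies. Control cells were deeper, with a median of 1789 UMIs against 1132 to 1393, and on thinned cells the Ccl3 ratios were 0.33, 0.04 and 0.63 and those of Ccl4 0.57, 1.01 and 1.54. Of 6, 6 and 9 members with 20 UMIs, 2 were at least 2-fold higher with anti-PD-1 (Ccl4 and Ccl9), 2 with anti-CTLA-4 (Ccl3 and Ccl4) and 5 with the combination (Ccl3, Ccl4, Ccl6, Ccl7 and Ccl12), and Ccl8 was lower with each single antibody. The values of Ccl7, Ccl12 and Ccl8 there rest on few cells and are not read as a difference. Ccl12 had 45 UMIs with the combination and 15 in control, and its log2 ratio of 1.05 became -0.22 without the richest cell of each library, -0.41 on thinned cells and -0.47 without the cells of highest doublet score. Ccl7 had 42 and 10 UMIs, and its ratio went from 1.54 to -1.555 without the cells of highest doublet score. The Ccl8 ratio with anti-PD-1 went from -2.755 to 1.41 without the 10 richest cells of each library. In this small cluster 8.18% of genes were at least 2-fold higher and 16.4% lower after anti-PD-1, 10.5% and 26.3% after anti-CTLA-4 and 15.9% and 22.7% after the combination.

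**Figure D5:**
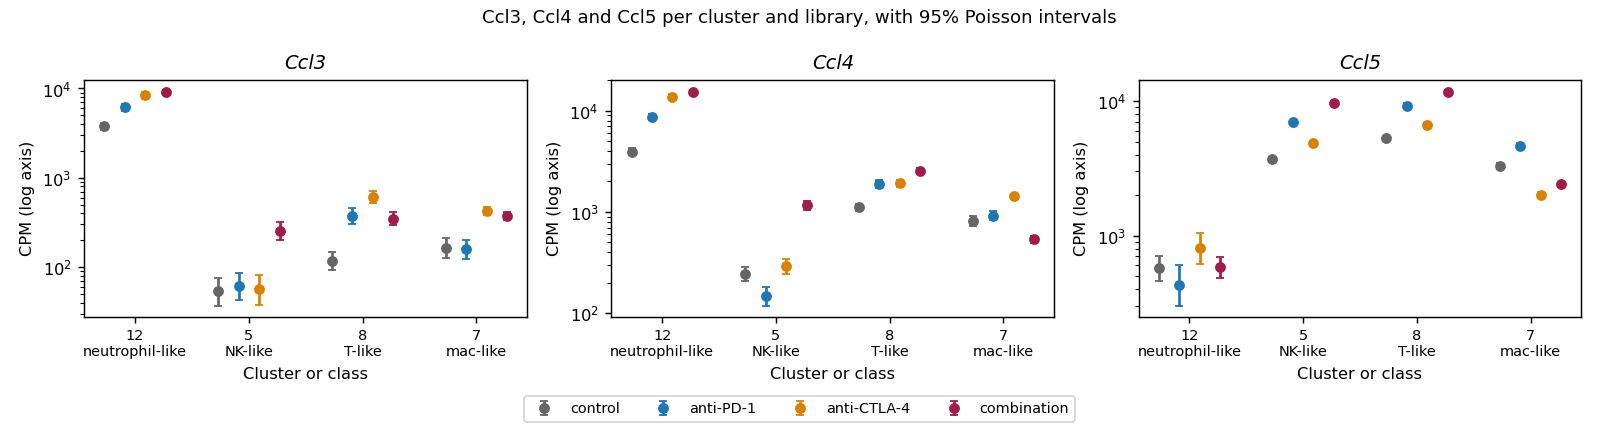
CPM (log axis) of Ccl3, Ccl4 and Ccl5 in neutrophil-like cluster 12, NK cell-like cluster 5, T cell-like cluster 8 and macrophage/monocyte-like cluster 7, 1 point per library with its exact Poisson 95% interval. In cluster 12 the control library is lowest for Ccl3 and Ccl4, and in clusters 5 and 8 the combination is highest for Ccl5, at 9695 and 11669 CPM.

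The receptor genes had other profiles. Ccr2, the receptor of Ccl2, Ccl7 and Ccl12, was at 411.6 CPM in cluster 0 and 412.1 in NK cell-like cluster 5, but at 227 in cluster 1 and 68.3 in cluster 2. In cluster 2, Ccr2 was 138 CPM in control and 51.1 to 68.0 in the treated libraries. Ccr1, a receptor of Ccl3, Ccl5, Ccl6 and Ccl9, was highest in neutrophil-like cluster 12 at 871 CPM. The atypical receptor gene Ccrl2, which binds chemerin and does not signal as a classical chemokine receptor, was at 2253 CPM in cluster 12. It was the 1 of 4 measured genes of the receptor list past 2-fold in the macrophage/monocyte-like class, higher in each treated library, and none was past 2-fold lower, beside 2.98% to 3.72% of all genes higher and 7.32% to 10.4% lower. Ccr2 in the class was below control by less than 2-fold, at log2 ratios of -0.86, -0.73 and -0.97. With the combination its ratios were 0.16, -1.43, 0.07 and -2.51 in clusters 1, 2, 4 and 7. The intervals in clusters 1 and 4 included no difference. The part of cluster makeup in the class ratios of Ccr2 was not tested. Ccrl2 stood at 92.2 CPM in the class in control, 207 after anti-PD-1, 315 after anti-CTLA-4 and 243 after the combination. In clusters 1, 2, 4 and 7 its log2 ratios were -0.32, 0.87, 0.95 and 0.70 with anti-PD-1, none past 2-fold. With anti-CTLA-4 they were 0.71, 1.68, 1.285 and 1.03. With the combination they were 0.82, 0.85, 0.54 and 0.47, again none past 2-fold. The part of cluster makeup in the class ratios of Ccrl2 was not tested.

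Other genes of the pathway were counted in the same class, in which 2.98%, 3.64% and 3.72% of all genes were at least 2-fold higher and 7.32%, 8.31% and 10.4% lower in the 3 comparisons. Of 12 immediate early genes, which tissue digestion can induce, none was at least 2-fold higher with anti-PD-1, only Atf3 was with anti-CTLA-4, and Jund, Egr1 and Atf3 were with the combination, and none was lower. Of 10 NF-kB feedback genes, Tnfaip3 was higher with anti-PD-1, and Nfkbia and Tnfaip3 in the other comparisons. Tnfaip3, whose protein dampens NF-kB signalling, stood at 25.01, 52.7, 88.3 and 90.4 CPM, and Atf3, a stress-induced transcription factor gene, at 102, 134, 255 and 258.5 CPM. The median log2 ratios were 0.14, 0.15 and 0.50 for the immediate early list and 0.28, 0.36 and 0.16 for the feedback list. Of the other CC ligands on the list, Ccl17 and Ccl24 were higher in all 3 comparisons, of 3, 3 and 4 that reached 20 UMIs.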

How the data were processed

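Single-cell 3′ RNA libraries of 4 groups were analysed from the raw UMI count matrices that the authors deposited, with the authors' deposited table of cells and cluster numbers. Cell Ranger, Seurat and mm10 are named per the submitters' processing notes, without versions or roles. Of 14618 barcodes, the 14491 listed cells with a matrix column were used, and 2 listed cells had none. UMIs were summed per cluster and library and divided by the total (CPM). Levels have exact Poisson, shares Clopper-Pearson and log2 ratios exact conditional binomial 95% intervals. The ratio script was tested on simulated data at the depths of cluster 2 in the control and anti-PD-1 libraries (3098 genes), where 95% of intervals for 200 changed genes covered the true ratio. A ratio needed 30 cells per library, and a count of genes past 2-fold needed 20 UMIs in 1 library. Thinning to 1000 UMIs left out 651 shallower cells. Scrublet in scanpy 1.11.5 marked 1 of 14491 cells and was taken not to have worked, so no doublets were removed, and leaving out the 437 cells (3%) with the highest scores was an alternative. Clusters were named from fixed marker lists, needing at least 3 detected markers. Python 3.11.15, NumPy 2.4.6, SciPy 1.17.1, pandas 2.3.3 and matplotlib 3.10.9 were used. Text names the 9 chemokines, fixed lists of receptors, other CC ligands, immediate early and NF-kB feedback genes, and for each chemokine the 2 genes with the most like profile among genes reaching 50 CPM. The members and lists were chosen with earlier results of these data known. The lymphoid subset table was not used here. One gene of the receptor list is not reported here.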

Additional observations from a re-analysis of the deposited data

Results flagged for a closer look

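For 2 of the chemokines the combination differed from control by at least 2-fold in both directions in different macrophage/monocyte-like clusters. This difference between clusters was not tested, since each group was 1 library. Ccl2 had a log2 ratio of 1.42 in cluster 4, which rests on 9 control UMIs (38.2 CPM in control and 102 with the combination, beside 20.4 and 35.7 CPM in T cell-like cells, a log2 ratio of 0.80 there), against -1.13 in cluster 2 and -1.68 in cluster 7. Ccl9 had a log2 ratio of 1.33 in cluster 1 and -1.17 in cluster 7. Ccl7 also lay on both sides of control, but by less than 2-fold in cluster 1 (0.59, against -1.002 in cluster 2 and -1.54 in cluster 7).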

How the results depend on the processing

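No paired analysis was possible because each group was 1 library. The counts of members past 2-fold in clusters 1, 2 and 7 and the macrophage/monocyte-like class were within 1.5 times under minima of 1 and 50 UMIs, in all 12 comparisons. At 1.5-fold the count was 7 in cluster 1 with the combination, 3, 6 and 5 in cluster 2 (anti-PD-1, anti-CTLA-4, combination), 3 and 7 in cluster 7 (anti-PD-1, anti-CTLA-4) and 7 in the class with the combination. At 3-fold it was 2, 1 and 1 in cluster 1, 1 and 0 in cluster 2 (anti-CTLA-4, combination), 1 and 2 in cluster 7 and 2 and 2 in the class for the same pair. Leaving out the 10 cells richest in the gene per library reversed 11 of 159 ratios: with anti-CTLA-4, Ccl3 in cluster 1 (-0.18) and cluster 8 (-1.02), Ccl2 and Ccl5 in cluster 7 (0.11 and 0.845), Ccl4 and Ccl5 in cluster 8 (-0.35 and -0.091), with the combination, Ccl5 and Ccl4 in cluster 7 (1.155 and 1.91), and with anti-PD-1, Ccl3 and Ccl4 in cluster 8 (-0.63 and -0.32) and Ccl4 in cluster 5 (0.49, and 0.056 without the top cell). Ratios whose counting interval included no difference are not among the reversals counted in this section, though some changed sign. Without the 10 richest cells, Ccl12 in cluster 1 with the combination went from 0.07 to -0.35. With anti-PD-1, Ccl12 in cluster 7 went from -0.11 to 0.52, and Ccl3 in clusters 2 and 7 from -0.07 to 0.94 and -0.06 to 0.73. Thinning reversed 3 of 171, all with anti-CTLA-4: Ccl3 in cluster 1 (-0.38), Ccl7 in cluster 7 (0.0073) and Ccl6 in cluster 12 (-0.13). With anti-PD-1, thinning also turned Ccl6 in cluster 12 (0.17 to -0.24) and Ccl3 in cluster 1 (-0.45 to 0.77). Their intervals included no difference, and they are not counted. In the class with the combination, fixing the makeup reversed Ccl2 (0.24), Ccl7 (0.21) and Ccl5 (-0.052), and without cluster 15, an alternative chosen after seeing the data, these were 0.40, 0.35 and -0.019, with Ccl3 with anti-PD-1 at -0.17. Size factors put Ccl9 with anti-CTLA-4 at 0.066, and joining cluster 0 put Ccl7 with anti-PD-1 at -0.13. The cause of these changes was not tested. Many ratios moved without reversing. Without the 10 richest cells, 31 of 159 ratios stayed within their counting interval and 117 moved outside it. On thinned cells 79 of 171 stayed and 89 moved. With the makeup fixed, 4 of 27 class ratios stayed and 20 moved. Without the highest doublet scores, 165 of 171 ratios stayed within their counting interval and none reversed. Those 171 did not include Ccl7, Ccl8, Ccl9 and Ccl12 in cluster 12, where with the combination Ccl7 went from 1.54 to -1.555 and Ccl12 from 1.05 to -0.47.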
